A study of Mus musculus with 11 samples.

Results

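C-type lectin receptors of the Clec family were examined in whole neonatal mouse skin after regulatory T cells (Tregs) had been removed for different periods. Members were all genes of the count table whose symbol starts with Clec followed by a digit, which gave 33 of 49315 genes. By the cell type or group for which they are best known they fell into 16 myeloid members, 8 members of the Clec2 group, 3 endothelial members, 3 stromal members, 1 platelet member (Clec1b) and 2 others (Clec16a and Clec18a). The Clec2 group includes ligands of natural killer (NK) cell receptors. Its 8 members are called NK ligands below by their group, not by a known receptor of each.

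Bulk RNA sequencing covered 11 Foxp3-DTR mice, 1 library per mouse, in 1 labelled batch. These mice, of both sexes on a C57BL/6J background, express the diphtheria toxin receptor from the Foxp3 promoter, so that diphtheria toxin (DT) kills cells in which this promoter is active. The PBS group (control, n = 2) kept its Tregs. The EarlyDT group (ΔETreg, n = 3) had 30 ng/g DT on postnatal days P6 and P8 with skin taken on P9. The LateDT group (ΔLTreg, n = 3) had DT on P10 and P12, and the FullDT group (ΔTreg, n = 3) on P6, P8, P10 and P12, both with skin taken on P13. The study describes its controls as matched in age to the depleted mice, but the labels do not give the day for either PBS library, and the same 2 libraries serve in every comparison with the control here. Age and DT therefore cannot be fully told apart in those comparisons, while ΔTreg and ΔLTreg were of the same age.

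C-type lectin receptors carry a domain that, in many members, binds sugars on microbes or on the body's own cells. On macrophages, monocytes, neutrophils and dendritic cells, activating members signal through Syk and Card9, either with a motif in their own tail or through the adapters Fcer1g and Tyrobp, and inhibitory members recruit phosphatases such as Ptpn6. Other members are ligands that NK cells and T cells read through Klrb1 receptors, vessel wall proteins or secreted matrix proteins.

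Libraries held 23377571 to 34159435 counts. Foxp3 itself had only 9 to 23 counts in any library and its range overlapped between all 4 groups, and the log2 difference from the control in ΔTreg was -0.30 (edgeR's quasi-likelihood test, Benjamini-Hochberg adjusted p = 0.546), so it did not separate the groups. Keratinocyte markers summed to 7782 to 10110 counts per 1000000 (CPM) and fibroblast markers to 6234 to 17050 CPM, the highest of the 12 marker lists in every library. One control mouse, mouse 1, was higher than the other in genes of blood monocytes (Ccr2 11.1 against 3.23 CPM, Fcgr1 5.99 against 2.23 CPM, Ly6c2 2.49 against 0.120 CPM), and mouse 2 of ΔLTreg was the highest of its group in these genes (Fcgr1 9.57 CPM and Ly6c2 4.59 CPM). Mouse 3 of ΔLTreg had the lowest sum of fibroblast markers (6234 CPM) and the highest sum of skeletal muscle markers (4166 CPM) of all 11 libraries.

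The family is clustered in the genome, with 25 of its 33 members on chromosome 6 (GRCm38). The Dectin-2 cluster, from 122921848 to 123289870, holds 9 myeloid members from Clec4a1 to Clec4e. A block from 128652416 to 129186534 holds 7 members of the Clec2 group. The Dectin-1 block, from 129342691 to 129472779, holds Clec12a, Clec12b, Clec1b, Clec9a, Clec1a and Clec7a.

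Promoter sequences (RefSeq, GRCm38.p6; 250 bases before to 50 after the start of the gene) were found for 25 of the 33 members. They were searched on both strands for the letters of 4 motifs of factors active in myeloid cells or inflammation: AGGAAGT (PU.1), GAAA followed after any 2 bases by GAAA (an interferon response element, ISRE), TTCNNNGAA (a STAT site, GAS) and TGANTCA (AP-1). Of the 25 members, 1 held the PU.1 letters, 3 the ISRE letters (Clec4b1, Clec4d and Clec2d), 1 the GAS letters (Clec4a2) and 6 the AP-1 letters. Of 27025 promoters of the same length, 9.57%, 3.49%, 8.47% and 7.93% held them. The first 2 sequences are shown because these genes are neighbours in the Dectin-2 cluster of which Clec4e was called in ΔTreg and Clec4d was not (a difference between genes that was not tested), and the last because it is the NK ligand that rose. Bases that match a motif are in capitals, which in Clec4d and Clec2d mark the ISRE letters, in Clec4d on the opposite strand. The Clec4e sequence holds none of the 4 motifs.
Clec4d, chr6:123261857-123262156, plus strand: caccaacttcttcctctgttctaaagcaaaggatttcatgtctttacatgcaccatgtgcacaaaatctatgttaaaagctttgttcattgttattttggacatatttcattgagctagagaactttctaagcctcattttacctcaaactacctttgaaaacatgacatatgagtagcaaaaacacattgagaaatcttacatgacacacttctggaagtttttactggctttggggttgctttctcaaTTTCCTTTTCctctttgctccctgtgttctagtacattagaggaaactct
Clec4e, chr6:123289822-123290121, minus strand: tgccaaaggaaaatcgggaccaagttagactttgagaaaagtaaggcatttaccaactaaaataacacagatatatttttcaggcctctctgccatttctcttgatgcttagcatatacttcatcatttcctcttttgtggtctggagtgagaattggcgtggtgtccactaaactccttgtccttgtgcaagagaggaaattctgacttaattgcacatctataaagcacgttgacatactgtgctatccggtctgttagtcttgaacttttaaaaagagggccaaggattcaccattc
Clec2d, chr6:129180365-129180664, plus strand: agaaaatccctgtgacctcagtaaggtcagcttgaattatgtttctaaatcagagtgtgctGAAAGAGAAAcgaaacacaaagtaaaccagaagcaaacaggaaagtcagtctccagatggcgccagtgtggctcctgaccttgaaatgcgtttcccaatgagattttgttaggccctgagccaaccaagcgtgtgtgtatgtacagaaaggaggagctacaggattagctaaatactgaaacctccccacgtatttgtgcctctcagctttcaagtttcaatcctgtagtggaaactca

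Of the 33 members, 22 passed a filter on low counts (about 0.344 CPM in at least 2 libraries) and were tested, and Clec2i passed only through the ΔTreg mice. The other 11 stayed at 14 counts or fewer in every library, 7 of them at 3 or fewer, and nothing can be said of their response at this depth. They were the Kupffer cell receptor Clec4f, the DCIR member Clec4a4, Clec4b2, the NK ligands Clec2e, Clec2f, Clec2h and Clec2j, the platelet receptor Clec1b, the sinusoidal endothelial receptor Clec4g, Clec18a and the cartilage protein Clec3a. Clec2j, annotated as a pseudogene in GENCODE M21, was at 0 in all 11 libraries.

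In control skin, the highest level per exon length was that of Clec3b (tetranectin, a secreted plasminogen-binding protein), at 34.9 ± 2.99 RPKM (counts per 1 kb of exon after scaling to CPM, SD, n = 2). Clec2d followed at 8.46 ± 1.93 RPKM, Clec16a at 5.59 ± 0.159 RPKM, Clec11a at 4.20 ± 1.29 RPKM and Clec10a at 3.35 ± 0.677 RPKM. Of these neighbours in the order, Clec16a and Clec11a, and Clec11a and Clec10a, had ranges of mean ± SD that overlapped. In ΔTreg skin the myeloid receptor Clec10a, at 20.9 ± 4.82 RPKM (SD, n = 3), stood level with Clec2d at 21.2 ± 3.13 RPKM, and only Clec3b, at 37.3 ± 5.50 RPKM, was higher. Clec4e was lowest of the 22 in control skin, at 0.0463 ± 0.0542 RPKM, and remained among the lower members in ΔTreg at 0.374 ± 0.0334 RPKM.

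**Figure D1:**
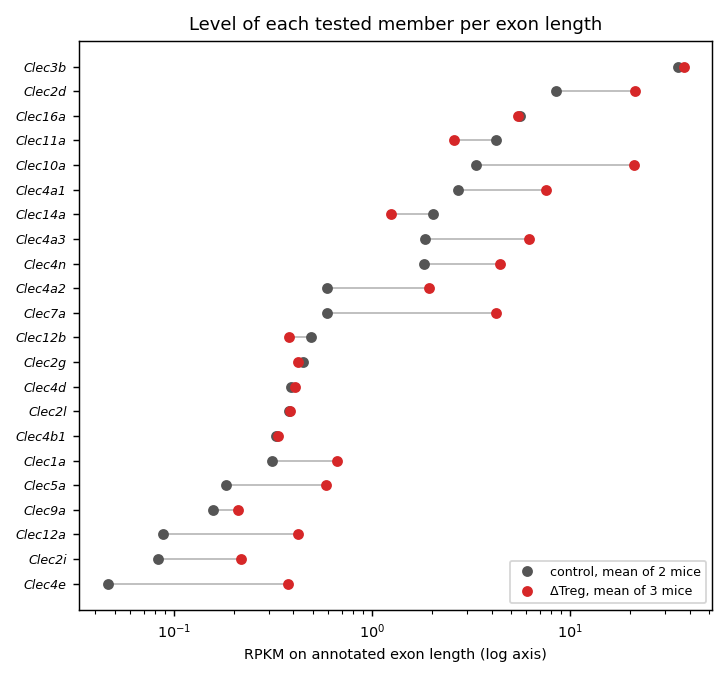
Mean level of each of the 22 tested members in control skin (grey, 2 mice) and ΔTreg skin (red, 3 mice), in RPKM on a logarithmic axis. Clec3b is highest in both groups, and Clec10a moves from 3.35 to 20.9 RPKM.

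Complete depletion was set against the control and against late depletion. Against the control, 10 of the 22 tested members were higher in ΔTreg and 1, Clec14a, was lower, where 12.1% and 9.39% of all 18375 genes tested were higher and lower. Against ΔLTreg, taken on the same day, 10 were again higher and 1 lower, where 10.7% and 6.11% of all genes were, and each of these 11 members was called in both comparisons. Both comparisons share the 3 ΔTreg mice. Among the myeloid members, 8 of the 13 tested were higher in each comparison and none was lower, with a median log2 fold change of 1.68 against the control and 1.74 against ΔLTreg, where the median of all genes was -0.0059 and -0.0044. In 13 of the 22 tested members all 3 ΔTreg mice lay above both controls, where 26.8% of all genes did, and without Clec2i, which was tested only because of these mice, there were 12. In whole skin, more cells of a type and more RNA per cell cannot be told apart, for these and all later values.

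**Figure D2:**
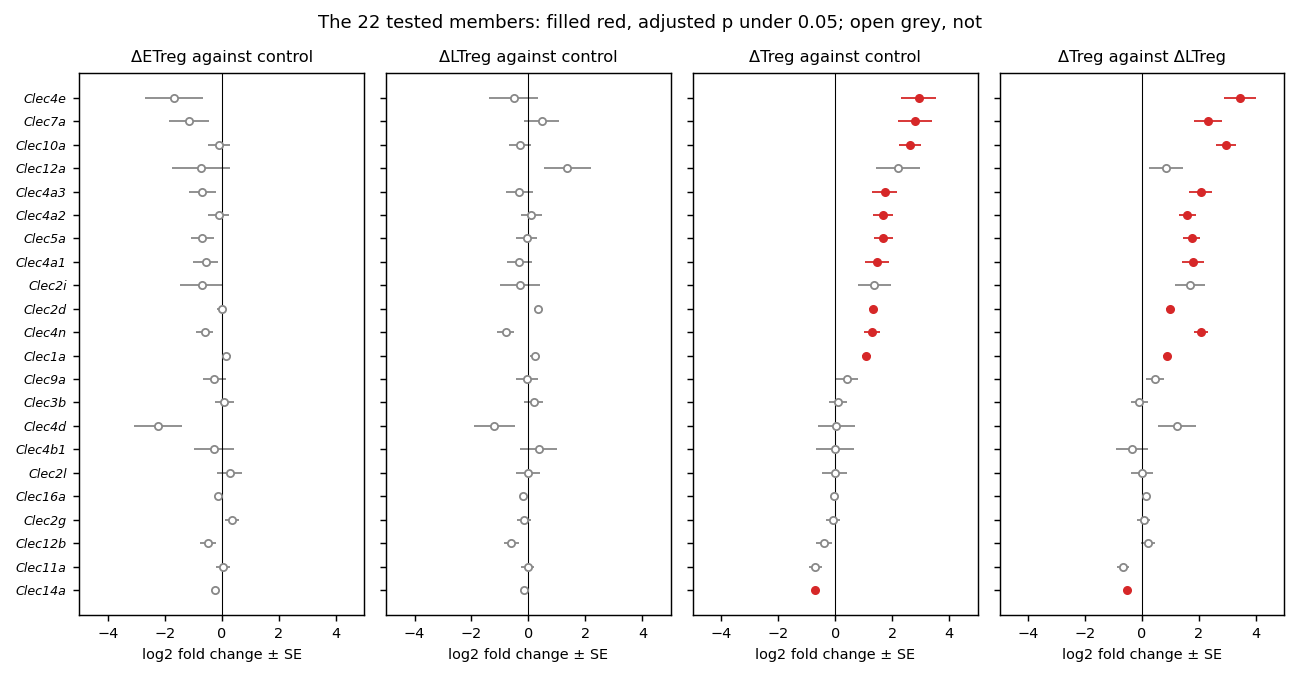
Log2 fold change ± SE of the 22 tested members in 4 comparisons, with members at an adjusted p under 0.05 filled red (edgeR's quasi-likelihood test). The first 2 panels hold no red point, and the last 2 hold 10 members above 0 and Clec14a below 0.

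Clec10a (MGL1, chr11:70156197-70170834) binds galactose and N-acetylgalactosamine and marks dermal macrophages and a set of dendritic cells. It was at 11.1 and 8.33 CPM in the 2 control mice, at 10.1, 10.9 and 6.17 CPM in ΔETreg, at 9.0, 11.1 and 3.60 CPM in ΔLTreg and at 76.4, 50.2 and 54.8 CPM in ΔTreg. Every ΔTreg mouse lay far above the other 8 libraries, which overlapped one another. The difference was 6.20-fold against the control (log2 2.63, SE 0.394, edgeR's quasi-likelihood adjusted p = 0.000833) and 7.69-fold against ΔLTreg (log2 2.94, SE 0.342, adjusted p = 0.000180). Its neighbour Mgl2, which encodes the related lectin MGL2, was higher by 2.65 against the control on the log2 scale (edgeR adjusted p = 7.87e-06), from 10.05 and 9.999 CPM to 75.0, 48.0 and 65.6 CPM. Of the exon windows of 100 bases in Clec10a, 2.64% also occur in Mgl2.

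Clec7a (Dectin-1, chr6:129461591-129472779) is the receptor for fungal β-glucan and signals through Syk with a motif of its own. It was at 2.52 and 0.598 CPM in the control mice, at 0.766, 0.690 and 0.686 CPM in ΔETreg, at 2.18, 3.53 and 1.00 CPM in ΔLTreg and at 17.6, 7.16 and 8.69 CPM in ΔTreg. The 3 ΔTreg mice were above all others, mouse 1 the most, while the 2 controls differed from each other more than the 3 ΔETreg mice did. It was 6.94-fold higher than the control (log2 2.79, SE 0.595, edgeR's quasi-likelihood adjusted p = 0.00681) and 5.03-fold higher than ΔLTreg (log2 2.33, SE 0.487, adjusted p = 0.00734). The size against the control rested on which control mouse was used, with log2 values of 4.20 without control mouse 1 and 2.12 without control mouse 2. GENCODE M21 lists Clec7a as a polymorphic pseudogene.

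Clec4e (Mincle, chr6:123281789-123289870) is the inducible receptor for mycobacterial cord factor and for a ribonucleoprotein of dying cells, Sap130, and signals through Fcer1g. It was at 0.420 and 0.0398 CPM in the control mice, at 0.0348, 0.132 and 0.0429 CPM in ΔETreg, at 0.119, 0.392 and 0.0313 CPM in ΔLTreg and at 1.80, 1.72 and 2.04 CPM in ΔTreg. The ΔTreg mice lay close together and above all others, which held 12 counts or fewer, with 1 control, 2 ΔETreg and 1 ΔLTreg library at 3 or fewer. The difference was 2.93 against the control on the log2 scale (SE 0.625, edgeR's quasi-likelihood adjusted p = 0.00687) and 3.44 against ΔLTreg (SE 0.561, adjusted p = 0.00163). With so few counts at the lower end the size is loosely set, and without control mouse 1 the first value became 5.39 and without control mouse 2 it became 2.12. Without mouse 2 of ΔLTreg the second became 4.52.

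Its neighbour Clec4d (MCL, chr6:123262111-123275265), a partner of Mincle at the cell surface, was at 1.05 and 0.199 CPM in the control mice and at 0.600, 0.831 and 0.526 CPM in ΔTreg. The ΔTreg mice fell between the 2 controls. It did not pass against the control (edgeR adjusted p = 0.978), and against ΔLTreg, at 0.268, 0.471 and 0.125 CPM, it missed the threshold as well (adjusted p = 0.233) although all 3 ΔTreg mice were higher.

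Clec4n (Dectin-2, chr6:123229843-123247021) binds mannans of fungi and signals through Fcer1g. It was at 2.73 and 2.43 CPM in the control mice, at 2.16, 1.64 and 1.29 CPM in ΔETreg, at 1.40, 2.12 and 1.00 CPM in ΔLTreg and at 7.08, 4.93 and 6.83 CPM in ΔTreg. The controls were close together here, all 6 mice of the shorter depletions lay below both, and the ΔTreg mice lay above. The log2 difference was 1.27 against the control (SE 0.282, edgeR's quasi-likelihood adjusted p = 0.00827) and 2.07 against ΔLTreg (SE 0.259, adjusted p = 0.000286).

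The DCIR members of the same cluster, Clec4a1, Clec4a2 and Clec4a3, are receptors of macrophages and dendritic cells, and Clec4a2 carries an inhibitory motif. Clec4a1 was at 4.80 and 3.63 CPM in the control mice, at 2.36 to 3.32 CPM in ΔETreg, at 2.65, 6.27 and 1.47 CPM in ΔLTreg and at 13.6, 9.26 and 12.3 CPM in ΔTreg. Clec4a2 was at 2.31 and 1.16 CPM in the controls and at 6.65, 4.99 and 5.38 CPM in ΔTreg, and Clec4a3 at 2.98 and 1.91 CPM and at 9.43, 7.60 and 7.64 CPM. In each of the 3 genes the lowest ΔTreg mouse was above the highest of the other 8 mice, and within ΔLTreg mouse 2 was highest and mouse 3 lowest. Log2 fold changes against the control were 1.47 (SE 0.434), 1.69 (SE 0.346) and 1.74 (SE 0.447), with edgeR's quasi-likelihood adjusted p of 0.0340, 0.00544 and 0.0182. Against ΔLTreg they were 1.78, 1.59 and 2.06. Without control mouse 1 the value of Clec4a2 against the control became 2.28, and without mouse 2 of ΔLTreg those of Clec4a1 and Clec4a3 against ΔLTreg became 2.49 and 2.64. Of the exon windows of Clec4a2, 2.14% also occur in Clec4a4.

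Clec5a (MDL-1, chr6:40574894-40585821), which pairs with Tyrobp on monocytes and neutrophils, was at 0.560 and 0.837 CPM in the control mice and at 2.70, 1.81 and 2.23 CPM in ΔTreg. The 6 mice of the shorter depletions lay between 0.214 and 0.823 CPM, without overlap with ΔTreg. It was 3.20-fold higher than the control (log2 1.68, SE 0.333, edgeR's quasi-likelihood adjusted p = 0.00450) and 3.34-fold higher than ΔLTreg (log2 1.74, SE 0.286, adjusted p = 0.00169).

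In the Dectin-2 cluster, 5 of 7 tested members were higher in both comparisons, and in the Dectin-1 block 2 of 5 were, Clec7a and the endothelial Clec1a, where 12.1% and 10.7% of all genes were higher. Clec12a, an inhibitory receptor for uric acid crystals, was at 0.771 and 0.199 CPM in the controls, at 0.864, 2.75 and 0.407 CPM in ΔLTreg and at 3.04, 2.20 and 1.76 CPM in ΔTreg. Here mouse 2 of ΔLTreg lay inside the ΔTreg range, and Clec12a passed neither test (log2 2.20, SE 0.787, adjusted p = 0.0700 against the control by edgeR's quasi-likelihood test, and log2 0.84, SE 0.589, adjusted p = 0.374 against ΔLTreg). Against the control the value was 3.50 without control mouse 1 and 1.57 without control mouse 2 (edgeR adjusted p = 0.0823 and 0.350). Without mouse 2 of ΔLTreg it passed against ΔLTreg (log2 1.84, edgeR adjusted p = 0.0409), and DESeq2 called it against the control (adjusted p = 0.000189).

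Other myeloid members did not pass. Clec9a (DNGR-1), the receptor of cross-presenting dendritic cells for actin exposed by dead cells, was at 0.630 and 0.398 CPM in the controls and at 0.643, 0.713 and 0.711 CPM in ΔTreg (edgeR adjusted p = 0.478), and it shares 184 bases of exon on the same strand with Clec1b. Xcr1, which marks the same dendritic cells, was at 0.876 and 0.717 CPM in the controls and at 0.643, 0.891 and 0.835 CPM in ΔTreg. Of the 6 tested dendritic cell markers, 3 were higher than the control (Batf3, Itgax and Ccr7) and none was lower. Among all genes 12.1% were higher and 9.39% lower. Batf3 rose by 1.81 on the log2 scale (edgeR adjusted p = 0.00562). Ccr7 was tested only because of its ΔTreg mice, so that its call carries no weight. Clec12b, an inhibitory receptor, was at 0.876 and 0.717 CPM against 0.729, 0.564 and 0.557 CPM (edgeR adjusted p = 0.338), and Clec4b1 stayed at 14 counts or fewer.

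**Figure D3:**
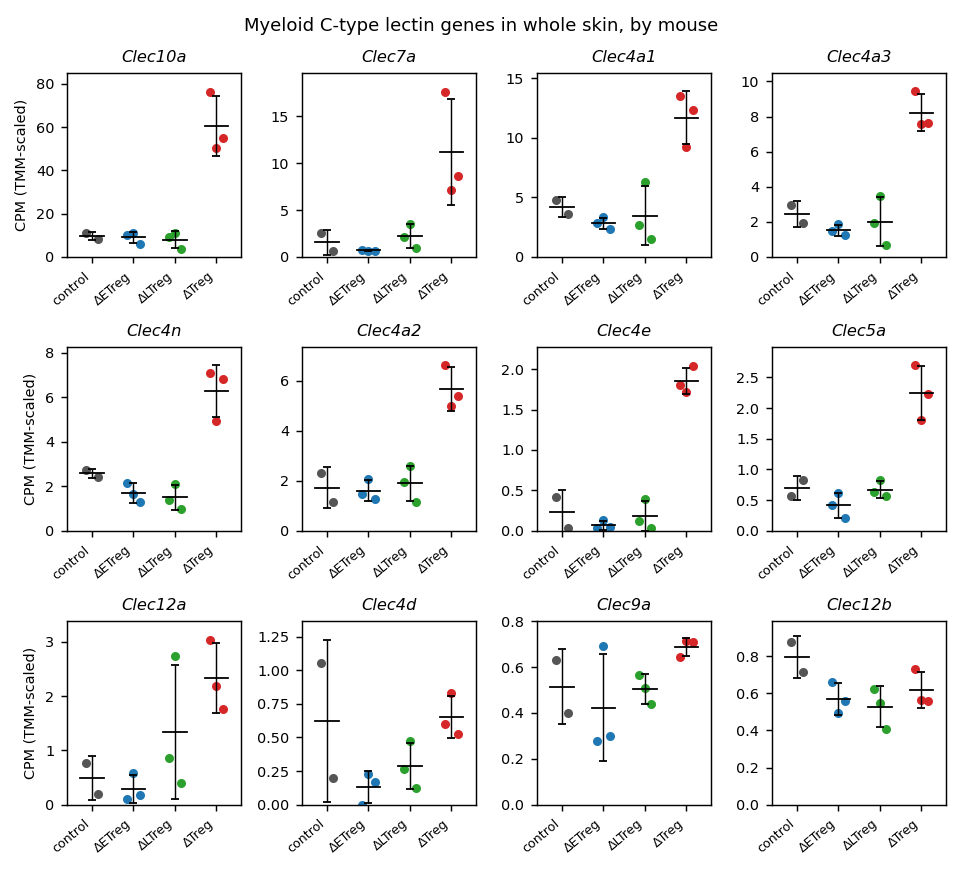
Level of 12 myeloid members in each mouse, in TMM-scaled CPM, by group. Points are mice, and lines are the group mean ± SD. In the 8 members that rose the ΔTreg mice lie apart from all others, and in the other 4 they do not.

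Most myeloid calls against the control were lost without control mouse 2, the one lower in monocyte genes. That fit held 1 control, assumed to vary like the other groups (edgeR's quasi-likelihood test). The log2 fold changes of Clec7a, Clec4e, Clec4n, Clec4a1, Clec4a2 and Clec4a3, which lost their calls, then lay between 1.19 and 2.12. For Clec4n, with controls close together, the value went from 1.27 to 1.19 and the SE from 0.282 to 0.377. The fit without control mouse 1 also held 1 control. The median log2 fold change of the tested myeloid members was 1.70 there and 1.28 without control mouse 2. Whether the monocyte genes of the controls, or the use of 1 control, bear on these calls was not tested. Clec4a1 also missed the threshold without control mouse 1, ΔTreg mouse 1 or ΔTreg mouse 3 (edgeR adjusted p = 0.0748 to 0.0917), and Clec4a3 without ΔTreg mouse 1 (edgeR adjusted p = 0.0547). Against ΔLTreg, 8 or 9 myeloid members were called whichever mouse was left out.

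Summed over the 16 myeloid members, the level was 31.1 and 20.6 CPM in the control mice, 20.4, 23.8 and 14.6 CPM in ΔETreg and 22.5, 35.1 and 11.1 CPM in ΔLTreg. In ΔTreg it was 140.6, 92.3 and 103.9 CPM, of which Clec10a alone gave 76.4, 50.2 and 54.8 CPM. The 10 macrophage and monocyte markers moved with it: their sum was 143.0 to 206.0 CPM in the control, 100.4 to 154.8 CPM in ΔETreg, 89.2 to 212.8 CPM in ΔLTreg and 317.0 to 412.9 CPM in ΔTreg, with 4 of 10 higher against the control and 6 of 10 against ΔLTreg, none lower and none at 0. Among all genes 12.1% were higher than the control and 10.7% higher than ΔLTreg. The macrophage markers Cd163 and Adgre1 were higher than the control by 1.70 and 1.37 on the log2 scale (edgeR adjusted p = 0.00198 and 0.0357). The 8 neutrophil markers summed to 13.5 to 14.3 CPM in the control and 34.2 to 43.4 CPM in ΔTreg. Of these sums, S100a8 alone gave 8.02 and 10.96 CPM in the control and 15.05, 15.47 and 15.33 CPM in ΔTreg. S100a9 gave 2.03 and 1.79 CPM in the control and 10.81, 9.89 and 9.24 CPM in ΔTreg. All 6 neutrophil markers that were tested were higher, where 12.1% of all genes were. Of these 6, Retnlg and Ngp passed the filter on low counts only through the ΔTreg mice, so that their calls carry no weight. Ly6g, which defines neutrophils, had at most 2 counts in any library. The part of these cells in the rise of the myeloid members was not tested.

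**Figure D4:**
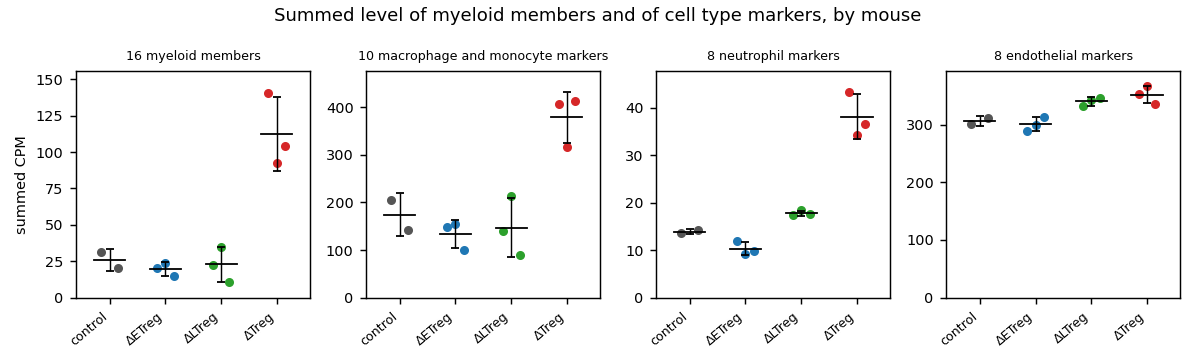
Summed CPM of the 16 myeloid members and of 3 lists of cell type markers in each mouse, by group, each axis starting at 0. Points are mice, and lines are the group mean ± SD. ΔTreg mice stand apart in the first 3 panels, while the endothelial sums of ΔTreg (336.4 to 366.9 CPM) reach into the range of ΔLTreg (331.3 to 345.2 CPM).

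The 2 endothelial members that could be tested moved in opposite directions. Clec14a (chr12:58264720-58269290), a protein of vessel sprouting, was at 9.28 and 9.24 CPM in the control mice, at 7.59, 8.12 and 7.88 CPM in ΔETreg, at 8.23 to 8.26 CPM in ΔLTreg and at 5.32, 5.55 and 6.21 CPM in ΔTreg. Mice within a group were close together, and ΔTreg did not overlap any other group. It was 1.62-fold lower than the control (log2 -0.70, SE 0.0951, edgeR's quasi-likelihood adjusted p = 0.000445) and 1.44-fold lower than ΔLTreg (log2 -0.53, SE 0.0861, adjusted p = 0.00159).

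Clec1a (MelLec, chr6:129424772-129452000), an endothelial receptor for fungal melanin, was at 1.54 and 1.67 CPM in the control mice, at 1.78, 1.87 and 1.71 CPM in ΔETreg, at 1.91, 1.88 and 1.85 CPM in ΔLTreg and at 3.30, 3.83 and 3.15 CPM in ΔTreg. The first 8 mice spanned a narrow range and the ΔTreg mice lay well above it. It was higher by 1.10 than the control on the log2 scale (SE 0.151, edgeR's quasi-likelihood adjusted p = 0.000487) and by 0.87 than ΔLTreg (SE 0.129, adjusted p = 0.000899).

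Of 8 endothelial markers, ΔTreg had 3 higher and 2 lower than the control, where 12.1% and 9.39% of all genes were. Pecam1, on all endothelium, was higher by 0.69, and Cdh5, of the junctions between endothelial cells, and Kdr, the main receptor for vascular endothelial growth factor, were lower by -0.36 and -0.67 on the log2 scale (edgeR adjusted p = 5.62e-06, 0.00374 and 0.00303). Mmrn2, the matrix protein that Clec14a binds, was at 16.7 and 14.2 CPM in the control mice and at 25.7, 26.0 and 25.3 CPM in ΔTreg. It rose by 0.73 on the log2 scale (edgeR adjusted p = 0.000476), the opposite direction to Clec14a. Against ΔLTreg, 2 of the 8 endothelial markers were higher and 4 lower, where 10.7% and 6.11% of all genes were. Whether the makeup of the endothelium bears on either member was not tested.

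Of the 8 NK ligands, 4 were tested and 1 was called, as higher in ΔTreg, where 12.1% of all genes were higher than the control and 9.39% lower. Clec2d (Clr-b, chr6:129180615-129186534) is a broadly expressed ligand of the inhibitory receptor Klrb1b. It was at 11.9 and 8.61 CPM in the control mice, at 9.89, 10.5 and 10.4 CPM in ΔETreg, at 13.4, 13.1 and 12.5 CPM in ΔLTreg and at 25.1, 29.7 and 22.2 CPM in ΔTreg. The ΔTreg mice were apart from all others, and the ΔLTreg mice were slightly above both controls. It was higher than the control by 1.32 on the log2 scale (SE 0.145, edgeR's quasi-likelihood adjusted p = 0.000110) and than ΔLTreg by 0.98 (SE 0.124, adjusted p = 0.000306).

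Its receptor gene Klrb1b was at 1.44 and 0.677 CPM in the controls and at 2.19, 2.17 and 2.01 CPM in ΔTreg, all above the controls, and missed the threshold (log2 0.98, SE 0.328, edgeR adjusted p = 0.0548). Clec2i (Clr-g), a ligand of Klrb1f, was at 0.315 and 0.199 CPM in the controls, at 0.238, 0.353 and 0.0626 CPM in ΔLTreg and at 0.600, 0.416 and 1.02 CPM in ΔTreg. The 3 ΔTreg mice were the highest 3 of the 11, but Clec2i was tested only because of them, so that this carries no weight. The adjusted p was 0.124 against the control and 0.0501 against ΔLTreg (edgeR's quasi-likelihood test). Klrb1f was called, from 0.350 and 0.319 CPM to 0.686, 1.10 and 0.958 CPM (log2 1.46, edgeR adjusted p = 0.00447). It passed the filter on low counts only through the ΔTreg mice, so that its call carries no weight. Clec2g, at 1.16 and 1.39 CPM against 1.29, 1.19 and 1.14 CPM, and Clec2l had overlapping groups.

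NK and T cell markers were also measured: all 7 were higher in ΔTreg than in the control, where 12.1% of all genes were. Cd8a, Gzmb and Ncr1 passed the filter on low counts only through the ΔTreg mice, so that their calls carry no weight. The sum of the 7 markers of these cells went from 6.55 and 8.09 CPM to 62.5 to 72.2 CPM. The part of these cells in the level of Clec2d was not tested.

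Among stromal members, Clec3b was at 32.5 and 36.7 CPM in the control mice and at 30.9, 41.4 and 38.7 CPM in ΔTreg, while ΔLTreg spread from 19.8 CPM in mouse 3 to 57.5 CPM in mouse 1. No group stood apart (edgeR adjusted p = 0.862 for ΔTreg against the control). Clec11a (osteolectin, a growth factor for bone-forming stromal cells) was at 9.81 and 15.2 CPM in the controls, at 13.4, 14.9 and 8.55 CPM in ΔLTreg and at 7.20, 7.51 and 8.41 CPM in ΔTreg. All 3 ΔTreg mice were below the other 8, but the difference missed the threshold (log2 -0.69, SE 0.241, adjusted p = 0.0635 against the control by edgeR's quasi-likelihood test, and log2 -0.67, SE 0.218, adjusted p = 0.0603 against ΔLTreg). Without mouse 3 of ΔLTreg, the library low in fibroblast markers, it passed in both (log2 -0.69 and -0.87, edgeR adjusted p = 0.0207 and 0.00866). Without control mouse 1 it passed against the control as well (log2 -0.98, edgeR adjusted p = 0.0295), and without control mouse 2 it did not (log2 -0.35, adjusted p = 0.496).

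Fibroblast markers summed to 13090 and 14970 CPM in the control mice and to 6691 to 7487 CPM in ΔTreg, with 4 of 6 lower, none higher and none at 0. Of these sums, Col1a1 gave 8200 and 7456 CPM in control mice 1 and 2 and 3682, 3723 and 4136 CPM in ΔTreg. Col1a2 gave 6236 and 5131 CPM and 2576, 2626 and 2915 CPM. Pdgfra and Dcn were not called (log2 -0.23 and -0.17, edgeR adjusted p = 0.560 and 0.517). Among all genes 9.39% were lower than the control. Against ΔLTreg none of the 6 fibroblast markers was lower and 1 was higher, Pdgfra, by 1.02 on the log2 scale (edgeR adjusted p = 0.0100). Itga11, which encodes a subunit of the receptor of Clec11a, was at 19.5 and 22.8 CPM in the controls and at 16.4, 17.6 and 18.3 CPM in ΔTreg (edgeR adjusted p = 0.381). It was lower in ΔLTreg than in the control by -0.94 on the log2 scale, and higher in ΔTreg than in ΔLTreg by 0.67 (edgeR adjusted p = 0.0308 and 0.0342). The part of fibroblasts in the level of Clec11a was not tested. Clec16a, which despite its name acts in endosomes and autophagy, ranged from 37.0 to 48.0 CPM over the 11 mice (edgeR adjusted p = 0.768 for ΔTreg against the control).

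**Figure D5:**
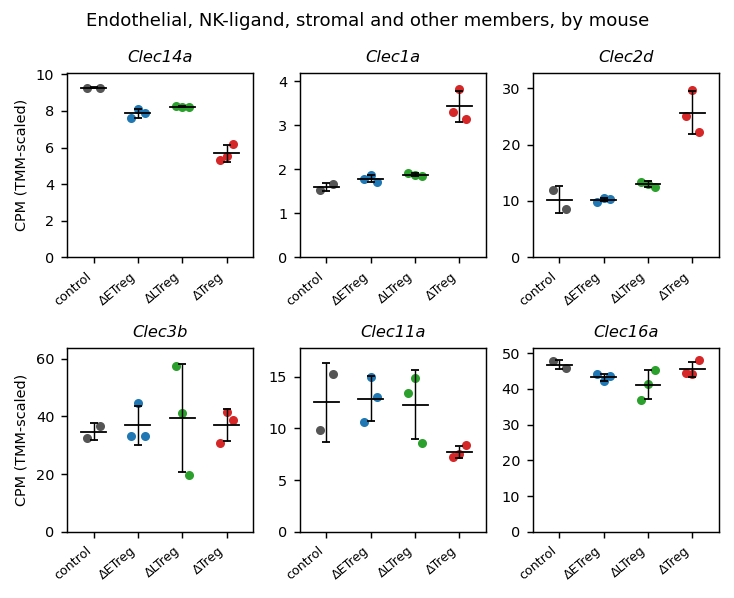
Level of 6 endothelial, NK-ligand, stromal and other members in each mouse, in TMM-scaled CPM, by group, each axis starting at 0. Points are mice, and lines are the group mean ± SD. Clec1a and Clec2d are raised and Clec14a is reduced in ΔTreg. Clec3b overlaps between all groups, and Clec16a overlaps between ΔTreg and the control.

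Neither short depletion gave a called member. In ΔETreg against the control, edgeR's quasi-likelihood test and DESeq2 each called 0 of the 22 tested members, where 0.00544% of all genes were called (edgeR). An unadjusted p under 0.05, which 4.75% of all genes had, was found for 2 members: Clec4d, lower by -2.23 on the log2 scale (0.0, 0.230 and 0.171 CPM in ΔETreg), and Clec14a, lower by -0.24, both with an edgeR adjusted p of 1.00. The value of Clec4d lay between -2.98 and -0.56 with single mice left out, the latter without control mouse 1. All 13 tested myeloid members had estimates below 0 (median log2 -0.60), but without control mouse 1, the one higher in monocyte genes, 6 of 13 did and the median was 0.12.

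In ΔLTreg against the control, both tools again called 0 of 22, where 4.55% of all genes were called (edgeR). An unadjusted p under 0.05, which 20.2% of all genes had, was found for 3: Clec4n, lower by -0.80 on the log2 scale, Clec2d, higher by 0.34, and Clec16a, lower by -0.18, with edgeR adjusted p of 0.163, 0.217 and 0.208. Myeloid sums in ΔLTreg spread widely between mice, from 11.1 CPM in mouse 3 to 35.1 CPM in mouse 2, wider than the gap between the 2 controls.

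Complete and early depletion were also compared directly, although these groups differ in age as well, P13 against P9. Here 12 members were higher and 2 lower in ΔTreg, where 13.2% and 9.81% of all genes were. Clec2i entered the tested set only through its ΔTreg mice, so that its call carries no weight, and 11 were higher without it. The 11 members called in the comparisons above were joined by Clec12a (log2 2.92, SE 0.738, edgeR's quasi-likelihood adjusted p = 0.0147), Clec2i (log2 2.08, SE 0.565, adjusted p = 0.0212) and, lower, Clec11a (log2 -0.74, SE 0.218, adjusted p = 0.0313). These last 3 each missed the threshold when some single mice were left out: Clec12a without mouse 1 or 3 of ΔETreg (edgeR adjusted p = 0.0610 and 0.0544), Clec2i without mouse 2 of ΔETreg or mouse 3 of ΔTreg (adjusted p = 0.0882 and 0.0915), and Clec11a without mouse 2 or 3 of ΔETreg or any 1 of the ΔTreg mice (adjusted p = 0.0570 to 0.117). Clec11a was also lost with sex as a covariate (edgeR adjusted p = 0.0567). Without mouse 2 of ΔETreg the log2 value of Clec12a became 4.05. Clec4e had the widest gap, 4.60 on the log2 scale (SE 0.665, edgeR adjusted p = 0.000502), on a ΔETreg group with at most 4 counts per mouse, and 5.44 without mouse 2 of that group. Late and early depletion gave 0 called members by edgeR's quasi-likelihood test, 4 at an unadjusted p under 0.05 (Clec2g, Clec2d, Clec12a and Clec7a), and 1 by DESeq2 (Clec7a), where edgeR called 6.38% of all genes, and where 22.7% of genes had an unadjusted p below that level.

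The pathway around the receptors was followed with lists of its other parts. Of 20 adapters and signalling genes, 17 were higher in ΔTreg than in the control and none was lower, where 12.1% and 9.39% of all genes were. The median log2 fold change of the 20 was 0.54. The adapter Fcer1g, used by Clec4e, Clec4n and Clec4d, was at 8.55 and 6.93 CPM in the controls and at 28.4, 24.7 and 25.2 CPM in ΔTreg (log2 1.75, SE 0.287, edgeR adjusted p = 0.00144). Tyrobp, used by Clec5a, went from 9.07 and 7.41 CPM to 19.8, 15.1 and 19.0 CPM (log2 1.12, SE 0.343, edgeR adjusted p = 0.0389). Syk rose by 0.46 (edgeR adjusted p = 0.0294), whereas Card9, at 3.33 and 2.39 CPM against 5.32, 3.39 and 3.71 CPM, did not pass (edgeR adjusted p = 0.138). Against ΔLTreg Card9 passed, with a log2 value of 0.71 (edgeR adjusted p = 0.0353).

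Of 9 cytokine genes induced through these receptors, 6 were tested and all 6 were higher than in the control (median log2 2.65). Among all genes 12.1% were higher. Il6 and Il10 passed the filter on low counts only through the ΔTreg mice, so that their calls carry no weight. Il1b went from 1.09 and 0.717 CPM to 4.29, 2.61 and 2.20 CPM. Against ΔLTreg, 3 of the 6 were higher, Il1b, Il6 and Il10, where 10.7% of all genes were. Of 9 genes for binding partners of the members, 8 were tested and 3 were higher than the control, Klrb1f, Mmrn2 and Actb, where 12.1% of all genes were. Klrb1f, also higher than in ΔLTreg, was tested only through its ΔTreg mice, so that its calls carry no weight. Pdpn, the ligand of the undetected Clec1b, and Sap130, the ligand of Clec4e, at 52.6 and 53.3 CPM against 49.8, 51.8 and 51.8 CPM, did not pass (edgeR adjusted p = 0.273 and 0.640). Against ΔLTreg 4 of the 8 were higher, Pdpn among them, by 0.59 on the log2 scale (edgeR adjusted p = 0.00969).

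Of 39 C-type lectin genes outside the Clec nomenclature, 32 were tested, and in ΔTreg 22 exceeded the control and 4 fell below it (21 and 3 against ΔLTreg). Among all genes 12.1% and 9.39% did so against the control, and 10.7% and 6.11% against ΔLTreg. Some that rose, such as Klrb1c, Klrc2 and Klrg1, passed the filter on low counts only through the ΔTreg mice, so that their calls carry no weight. Those that rose included the mannose receptor Mrc1 of macrophages, from 41.3 and 37.6 CPM to 204.4, 122.8 and 158.0 CPM, and the endothelial selectin Sele, from 1.26 and 0.757 CPM to 21.1, 8.14 and 10.1 CPM. Lower were Cd207 (langerin, the lectin of Langerhans cells), from 3.57 and 4.46 CPM to 1.20, 1.22 and 1.73 CPM (log2 -1.52, edgeR adjusted p = 0.000251), and Pla2r1, Cd93 and Thbd. Cd93 and Thbd, which belong to the same group of C-type lectin proteins as Clec14a and are expressed on endothelium, fell by 0.83 and 0.57 on the log2 scale (edgeR adjusted p = 0.00152 and 0.000875), as Clec14a fell by 0.70.

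The remaining marker lists, in ΔTreg against the control, held 3 of 6 tested dendritic cell markers higher (Itgax, Ccr7 and Batf3) and none lower, both Langerhans cell markers called in opposite directions (Epcam, which keratinocytes also express, higher, and Cd207 lower), none of 3 tested platelet markers called, 1 of 4 keratinocyte markers higher and 2 lower, 1 of 5 muscle markers higher, none of 4 adipocyte markers called and 3 of 5 red cell markers lower. Among all genes 12.1% were higher and 9.39% lower. Ccr7 passed the filter on low counts only through the ΔTreg mice, so that its call carries no weight. The part of these cell types in the levels of the members was not tested.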

How the data were processed

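Whole skin of 11 mice was profiled by bulk RNA sequencing. The authors used Trimmomatic 0.36 for trimming and STAR 2.5.2b for mapping to GRCm38, counted reads unique to the exons of a gene with featureCounts of Subread 1.5.2, and the authors deposited these raw counts without normalization for 49315 genes. Use of strand and the annotation release are not given in the sources used here. Reads shared by near-identical or overlapping genes are therefore lost or cannot be split.

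Groups came from the treatment labels. Members and gene lists were chosen with earlier results of these data known. Every member was counted, and values per mouse were given for members called against PBS or in FullDT against LateDT and for those highest in level. Non-member genes were named only as an adapter, partner, relative, induced cytokine or marker of a member, or because they passed the filter only through ΔTreg mice. Mrc1, Sele, Cd93, Thbd and Pla2r1 were chosen after their values were seen.

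Counts were analysed with edgeR 4.0.16 in R 4.3.3: filterByExpr by group left 18375 genes (common dispersion 0.012), TMM scaling, 1 quasi-likelihood fit to all 11 libraries, Benjamini-Hochberg adjustment over all genes tested and a call at an adjusted p under 0.05. SE was taken as |log2 fold change| / √F. RPKM divides TMM-scaled CPM by the exon length in GENCODE M21. Alternatives were DESeq2 1.42.0, edgeR on 2 groups, other scalings and filters, sex (read from Xist and Ddx3y) as covariate, and leaving out each mouse. The code was tested on simulated data. Each label names 1 mouse, so p-values measure the spread between mice, and floors cover counting error only.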

Additional observations from a re-analysis of the deposited data

Results flagged for a closer look

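Effects against the control that differed between depletion regimens were taken as results to look at again, each tested as a contrast of the 2 depleted groups (edgeR's quasi-likelihood test, Benjamini-Hochberg adjusted p under 0.05). The effect in ΔTreg minus that in ΔLTreg, on the log2 scale, was 3.44 for Clec4e, 2.94 for Clec10a, 2.33 for Clec7a, 2.07 for Clec4n, 2.06 for Clec4a3, 1.78 for Clec4a1, 1.74 for Clec5a, 1.59 for Clec4a2, 0.98 for Clec2d, 0.87 for Clec1a and -0.53 for Clec14a. These groups were of the same age and differed in the 2 early DT doses.

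The effect in ΔTreg minus that in ΔETreg was 4.60 for Clec4e, 3.94 for Clec7a, 2.92 for Clec12a, 2.72 for Clec10a, 2.41 for Clec4a3, 2.36 for Clec5a, 2.08 for Clec2i, 2.03 for Clec4a1, 1.87 for Clec4n, 1.80 for Clec4a2, 1.33 for Clec2d, 0.94 for Clec1a, -0.46 for Clec14a and -0.74 for Clec11a. Clec2i passed the filter on low counts only through its ΔTreg mice, so that its value is a description. Age at harvest and length of depletion cannot be told apart in these values. No group held the 4 mice needed to test a single mouse as an outlier.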

How the results depend on the processing

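With the other scalings, DESeq2, edgeR on 2 groups, other filters and sex as covariate, the 10 members higher and the 1 lower in ΔTreg kept their calls against the control and ΔLTreg, except Clec4e and Clec5a, which a minimum of 10 counts in every library left untested. Leaving out 1 mouse gave 4 to 11 members higher and 1 to 2 lower against the control, with 4 (Clec10a, Clec1a, Clec2d and Clec5a) without control mouse 2, and 10 to 12 higher and 1 to 2 lower against ΔLTreg. It gave 12 to 15 called members in ΔTreg against ΔETreg and 0 in the other comparisons. Clec11a made 2 lower members against the control with DESeq2, with edgeR on 2 groups and without the filter, and 2 against ΔLTreg with DESeq2 and without the filter. Without the filter, ΔLTreg against the control gave 1 higher (Clec12a) and 1 lower (Clec4n) member. ΔLTreg against ΔETreg gave 1 with DESeq2 (Clec7a) and 3 without the filter (Clec12a, Clec2d and Clec7a). The cause was not tested. No log2 fold change given for a member changed sign under any of these alternatives. No paired analysis was possible because the labels give no replicate numbers shared between groups. With 2 control mice, and fewer than 10 counts in some libraries for Clec4e, Clec4d, Clec4b1, Clec12a, Clec2i, Clec2l, Clec9a and Clec5a, small differences of these members were not detectable at this depth.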
